A study of Mus musculus with 12 samples.

Results

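Fragments of ribosomal RNA (rRNA) were examined in 10 small RNA libraries of the mouse male tract. A member was a distinct sequence that a library's file lists on the plus strand under an Rfam rRNA family or under a GenBank record of the class rRNA. The rule found 88257 distinct sequences among 2439644 in all 10 libraries, with 1557 to 26577 per library. The study compared wild-type (WT) C57BL/6 mice with C57BL/6 mice lacking Gpx5 (KO), a secreted glutathione peroxidase of the epididymis. At 13 months of age both genotypes were sampled in testis and in 3 epididymal segments (caput, corpus, cauda), and 2-month mice were sampled in caput only. Tissue from 7 WT and 7 KO animals was pooled at 13 months, and the number of animals at 2 months is not stated. Caput and cauda were punctured and incubated so that sperm could leave, whereas testis and corpus went straight to RNA extraction, per the labels' protocols. Each of the 5 pairs holds 1 library per genotype, so nothing here checks a genotype difference against biological spread. Intervals are at 95% and cover counting error only.

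Ribosomes hold 4 rRNAs in the cytosol. The 18S, 5.8S and 28S rRNAs are cut from one long precursor made in the nucleolus, while 5S rRNA has its own genes. Mitochondria make their own 12S and 16S rRNAs from the mitochondrial genome, where a tRNA gene stands between them. Short rRNA pieces in a small RNA library come from cutting or decay of these molecules, and the labels give a size range of 18 to 40 nt for these libraries. The longest rRNA read was 37 or 38 nt in each 13-month library and 47 nt in both 2-month libraries.

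The sequences below carry most of the results and are printed 5′ to 3′ as the deposited files give them. They were taken from the 3 most abundant rRNA sequences of each library and, in each pair, the 2 with the largest ratio in each direction among those with at least 50 RPM (reads per 1000000 classified reads). Nested forms share a name, and capitals mark the letters shared by all listed forms of that name.
mt-a, 19 nt: ACTAATCCTAGCCCTAGCC
mt-a, 20 nt: ACTAATCCTAGCCCTAGCCc
mt-a, 21 nt: ACTAATCCTAGCCCTAGCCct
mt-a, 24 nt: ACTAATCCTAGCCCTAGCCctaca
5.8S-a, 19 nt: CGCCTGTCTGAGCGTCGCT
28S-a, 32 nt: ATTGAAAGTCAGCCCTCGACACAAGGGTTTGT
28S-a, 33 nt: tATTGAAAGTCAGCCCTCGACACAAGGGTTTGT
28S-b, 23 nt: TGAAAAGAACTTTGAAGAGAGAG
18S-a, 29 nt: AGCCGCCTGGATACCGCAGCTAGGAATAA
18S-b, 36 nt: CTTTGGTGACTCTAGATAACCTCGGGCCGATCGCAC
18S-c, 34 nt: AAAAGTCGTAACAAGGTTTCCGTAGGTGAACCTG
18S-d, 25 nt: CTCTCGGCGCCCCCTCGATGCTCTT
pre-a, 22 nt: cTCTTAGATCGATGTGGTGCTC
pre-a, 21 nt: TCTTAGATCGATGTGGTGCTC
pre-b, 22 nt: CCCGAGGTGGGATCCCGAGGCC
pre-c, 22 nt: CCCCGCGGGGCCCCGTCGTCCC
pre-d, 19 nt: CCCTCCGAAGTTTCCCTCA
pre-e, 18 nt: CCCGGGGAGCCCGGCGGG
The other names give the molecule, while "pre" stands for a match to GU372691.1, a record of the long precursor that also holds 28S rRNA. A pre name thus does not say whether the fragment lies in 28S rRNA or elsewhere in the precursor. 5.8S-a and 28S-a are listed under that record too. The mt-a letters are those of the start of mouse mitochondrial 16S rRNA as commonly annotated, which was not checked against a mitochondrial genome here.

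The libraries held 3855476 to 29049669 classified reads, of which 6941 to 204345 were listed as rRNA. One caput library stood apart: in WT at 13 months piRNAs, small RNAs of germ cells, made up 15.8% of classified reads, against 0.655% in KO. The summed level of 8 germ cell miRNAs was 7537 RPM in that WT library and 411 RPM in KO, against 14276 and 26255 RPM in testis and 46.9 to 889 RPM in the other libraries. All 8 were listed in every 13-month library. Reads of Gpx5 mRNA numbered 808 (WT) and 25 (KO) in caput at 13 months, and 0 to 3 in each of the other libraries, too few to check their labels. Which part of Gpx5 is deleted is not given in the sources used here. The 13-month files skip 9 to 23 of their top 100 ranks and the 2-month files skip 2 and 5. A lone value of 0 for one sequence may therefore be a skipped line, whereas a low value above 0 comes from a line that is listed. Reads with 1 mismatch to a sequence are given beside some of the low values. Where such reads were many beside few exact reads, the low value was not used.

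rRNA was a small class, lower in caput of young mice than in any 13-month library, and the difference between genotypes had opposite directions in caput and in the other tissues at 13 months. In caput at 13 months rRNA made up 1.17% of classified reads in WT (1.17 to 1.18) and 0.656% in KO (0.652 to 0.659), a log2 KO over WT ratio of -0.84. Corpus had 0.650% in WT and 1.63% in KO (log2 1.33). Cauda had 1.16% and 1.78% (log2 0.62), and testis had 0.995% and 1.36% (log2 0.45). Corpus was thus the one pair in which the listed share differed by at least 2-fold. At 2 months caput had 0.180% (WT) and 0.151% (KO), so the 13-month caput of the same genotype was 6.52-fold (6.37 to 6.68) and 4.35-fold (4.27 to 4.44) higher. Age and sequencing run cannot be told apart here, because the instrument of each library is not stated. In bulk tissue, fewer cells of a type and less RNA per cell cannot be told apart either. piRNA reads enter the base of these shares, and among reads that were neither piRNA nor rRNA the log2 ratio in caput at 13 months was -1.09. The part of the germ cell RNA in the caput result was not tested.

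**Figure D1:**
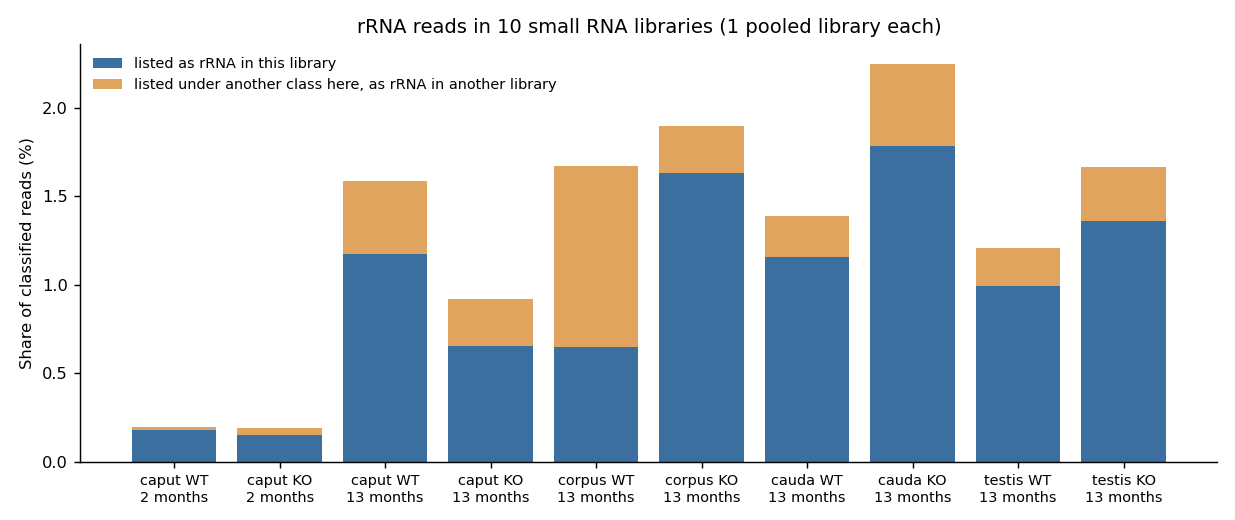
Share of classified reads (%) in each of the 10 libraries, with 1 pooled library per bar. The lower part is listed as rRNA in that library and the upper part is listed there under another class although another library lists the same letters as rRNA; the upper part is largest in WT corpus, at 1.02%.

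The same letters did not always carry the same class. Of 35538 rRNA sequences listed in at least 2 files, 8091 (22.8%) stood under another class or strand in some file. They were listed as mRNA in 5867 cases, as unknown in 1046, as piRNA in 653, as mitochondrial RNA in 525, as miRNA in 288, as snRNA in 162, as tRNA in 102 and as snoRNA in 30. Among the 88 of them with at least 50 RPM in a library, 38 (43.2%) had more than one class. The molecules differed widely in this. None of 11563 sequences under the 18S records and none of 646 under the 5.8S records had another class. This compared with 11.1% of 3069 for 5S and 40.9% of 16321 for 28S and the precursor. The precursor group includes 5.8S-a, which was listed as mRNA in some files, so not all 5.8S letters kept their class. For AB183255.1 and AB183256.1, the records that hold mt-a, it was 172 of 191 sequences (90.1%), each of them listed as mitochondrial RNA elsewhere.

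mt-a shows what this does to the corpus comparison. The 20 nt form was the most abundant rRNA sequence of the KO corpus, at 6503 RPM, and the WT corpus held 8721 RPM of the same letters under mitochondrial RNA. Its KO over WT ratio in corpus was therefore 0.746 (0.739 to 0.753), whichever class it is given. Cauda held 4097 RPM (WT) and 3942 RPM (KO), both listed as rRNA, a ratio of 0.962 (0.951 to 0.974). In caput at 13 months the values were 749 RPM in WT, as mitochondrial RNA, and 487 RPM in KO, as rRNA. Testis had 238 RPM in WT, as rRNA, and 239.8 RPM in KO, as mitochondrial RNA. Caput at 2 months had 23.3 RPM (WT) and 62.4 RPM (KO), both as mitochondrial RNA. Corpus and cauda of both genotypes thus stood highest, and class followed neither tissue nor genotype.

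**Figure D2:**
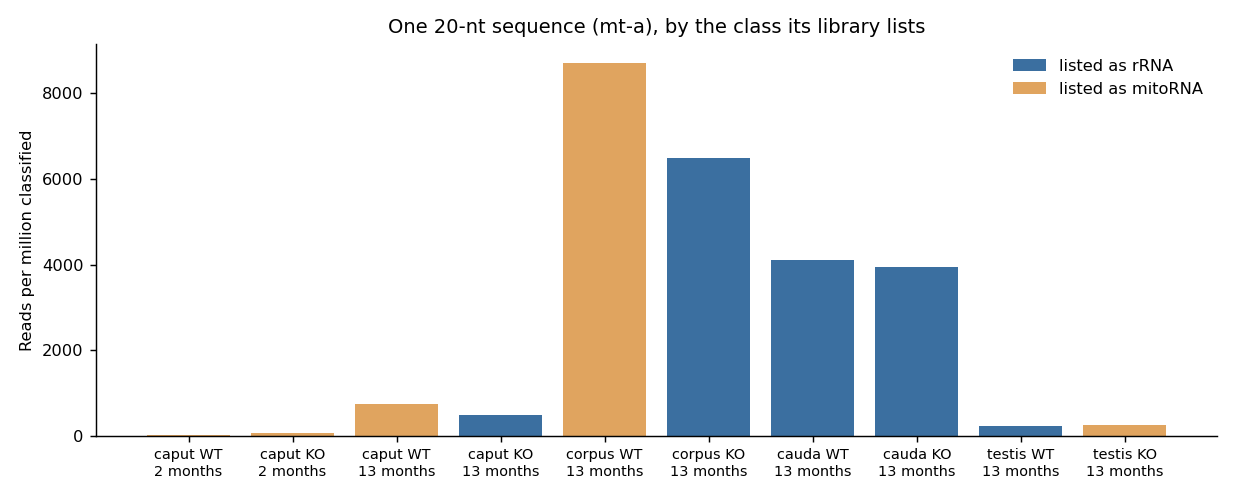
RPM of the 20 nt form of mt-a in each library, coloured by the class its own file gives. The 2 corpus libraries have the highest bars, at 8721 and 6503 RPM, and carry different classes.

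mt-a seldom began upstream of its named start, and its end varied. The forms counted hold its whole core with at most 3 nt more at either end, so reads that begin further in were left out. Of the reads counted, 96.3% to 100% began at the first base of the core in each of the 10 libraries. Outside testis 66.1% to 93.5% of these reads ended at the 20 nt form. In testis 52.9% of the reads in WT and 57.99% in KO ended 1 nt later, at the 21 nt form. The summed level of all forms (WT, then KO) was 9475 and 7188 RPM in corpus, 4486 and 4421 RPM in cauda, 1183 and 672 RPM in caput at 13 months, and 869 and 1046 RPM in testis.

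When a sequence was counted as rRNA in all libraries if any file lists it so, the genotypes drew together in corpus, and the log2 ratios moved less in the other pairs. The share became 1.67% in WT and 1.90% in KO corpus (log2 0.18). It was 1.59% and 0.918% in caput at 13 months (log2 -0.79), 1.39% and 2.25% in cauda (log2 0.70), and 1.21% and 1.67% in testis (log2 0.46). At 2 months it was 0.196% and 0.189% (log2 -0.05). Without AB183255.1 and AB183256.1 the log2 ratio in corpus was 0.65. The tissue order of WT depended on the same choice: corpus over caput was 0.554 (0.550 to 0.558) as listed and 1.05 (1.05 to 1.06) by this count.

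By molecule, 28S and precursor records formed the largest group in most libraries and as listed differed by at least 2-fold between genotypes in caput and cauda at 13 months. Their reads, which include those of the spacers cut away from the precursor, reached 5879 RPM in the WT caput and 2026 RPM in the KO caput, a KO over WT ratio of 0.345 (0.340 to 0.349). Counting any sequence that a file lists as rRNA, caput had 8026 and 4127 RPM, a ratio of 0.514 (0.509 to 0.519), just short of 2-fold. In cauda they stood at 2928 and 6986 RPM, a ratio of 2.39 (2.36 to 2.41). Corpus had 2344 and 3550 RPM and testis 3933 and 5747 RPM, both below 2-fold. The precursor group was thus lower in KO in caput and higher in KO in the other 13-month tissues. At 2 months it was 550 RPM (WT) and 290.2 RPM (KO), a ratio of 0.528 (0.497 to 0.560) as listed, and 661 and 571 RPM by that count, a ratio of 0.863 (0.822 to 0.906).

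18S rRNA, the RNA of the small subunit, differed by less than 2-fold in each of the 5 pairs, and its class was stable. It had 2287 and 1439 RPM in WT and KO caput at 13 months, 1563 and 2230 RPM in corpus, and 2355 and 4043 RPM in cauda. Testis had 2116 and 2193 RPM, a ratio of 1.04 (1.02 to 1.06). At 2 months 18S had 553 and 521 RPM and was the largest group as listed, at 30.7% and 34.6% of rRNA reads. The 18S values show the directions of the whole class at 13 months without any change of class: log2 -0.67 in caput, 0.51 in corpus, 0.78 in cauda and 0.05 in testis.

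The records of 5.8S rRNA, which pairs with 28S in the large subunit, had 484 RPM (WT) and 221 RPM (KO) in caput at 13 months, a ratio of 0.456 (0.439 to 0.474). In the other 13-month tissues they were 1.42 to 1.504 times as high in KO as in WT. These totals leave out 5.8S-a, which stands under the precursor record, and with its reads of any class the ratios were 0.344 (0.337 to 0.351) in caput, 1.76 (1.72 to 1.803) in corpus, 3.77 (3.66 to 3.89) in cauda and 2.84 (2.77 to 2.91) in testis. At most 0.123% of reads under the 5.8S records matched without a mismatch in any library. 5S rRNA, also of the large subunit, had 2109 and 1829 RPM in caput at 13 months, a ratio of 0.867 (0.854 to 0.881). It had 1664 and 3017 RPM in corpus, 1582 and 2021 RPM in cauda and 1625 and 2571 RPM in testis. 5S was therefore the cytosolic rRNA with the smallest difference in caput. Rn4.5s, a small nuclear-encoded RNA of rodents that the files class as rRNA, was scarce, with 4.15 to 122 RPM. As listed, Rn4.5s differed by at least 2-fold in all 5 pairs. It had 110 RPM (WT) and 30.5 RPM (KO) in caput at 13 months and higher values in KO in the other pairs. The 2-month ratio of 2.23 (1.28 to 4.11) rests on 16 reads in WT and 71 in KO. Its letters were not counted under any class, so a change of class may enter these ratios. Of its 514 sequences listed in at least 2 files, 73.3% had another class in some file.

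**Figure D3:**
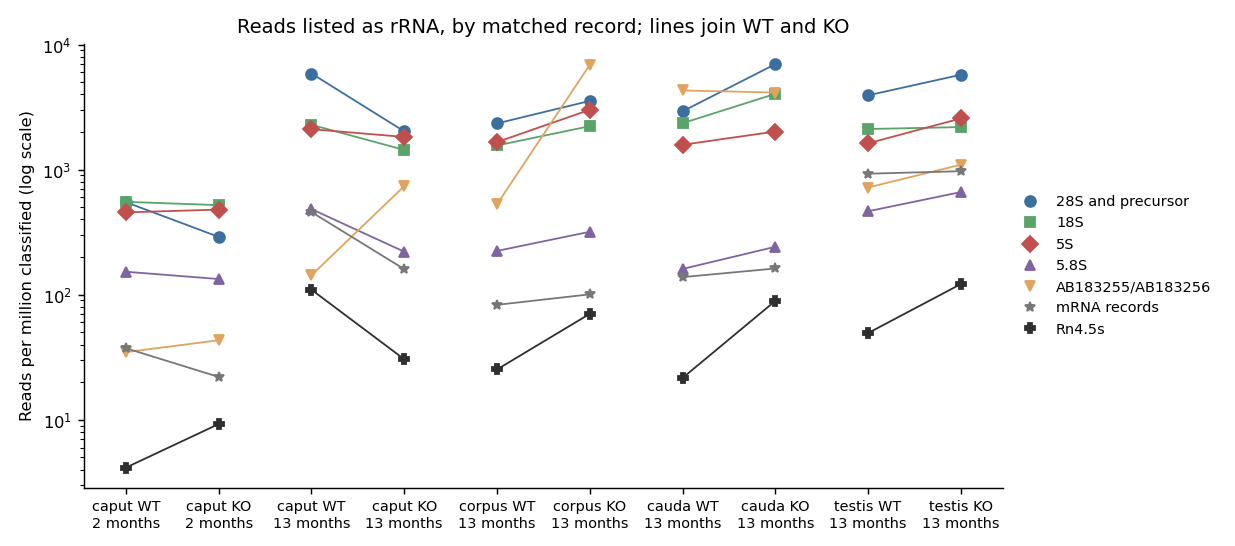
RPM (log scale) listed as rRNA in each library, by matched record, with lines joining WT and KO of a pair. In corpus the AB183255/AB183256 records go from 529 RPM (WT) to 6904 RPM (KO) as listed. WT corpus lists most mt-a reads as mitochondrial RNA, and over all classes mt-a had 9475 RPM (WT) and 7188 RPM (KO) there. In caput at 13 months the 28S and precursor group goes from 5879 RPM (WT) to 2026 RPM (KO).

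The files also class a set of messenger RNA records as rRNA. Of 610 matched records, 534 were cDNA or mRNA records, of which 395 were cDNA clone records without a gene symbol here. The other 139 carried 115 gene symbols (names from RefSeq, GRCm38.p6). Of these symbols 96 begin with Rps or Rpl, the genes of ribosomal proteins. Reads given for a gene leave out the clone records. All 534 records together held 929 RPM (WT) and 973 RPM (KO) in testis and 458 RPM in WT caput at 13 months, against 22.0 to 162 RPM in the other libraries. In testis 93.0% and 92.6% of these reads were 24 to 32 nt long, and in WT caput 69.7%. Rps27a, a ribosomal protein fused to ubiquitin, had 833 and 870 reads in testis, 509 in WT caput and 14 in KO caput at 13 months, and 0 to 24 in each other library. Rps15, of the small subunit, had 551 and 496 reads in testis, 221 in WT caput and 9 in KO caput. WT caput at 13 months, the library with the germ cell RNA noted above, is thus the epididymal library nearest to testis in these records. Without these records the log2 ratio of the rRNA share in that pair was -0.82.

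Single sequences were then compared within each pair, with reads of the same letters counted under any class. A sequence entered with at least 10 RPM in a library of the pair and was called at a ratio of at least 2-fold whose interval excluded 1. In caput at 13 months 129 rRNA sequences entered, and 2 were higher in KO, where 4.97% of all 4704 classified sequences were. There were 64 lower in KO (49.6%), where 62.1% of all sequences were. In corpus 34 of 93 were higher (background 21.6%) and 3 lower (background 18.7%). In cauda 84 of 172 were higher (background 21.2%) and 9 lower (background 7.37%). In testis 58 of 156 were higher (background 9.24%) and 7 lower (background 14.4%). At 2 months 1 of 26 was higher (background 10.6%) and 4 lower (background 37.3%). The median log2 ratio of rRNA sequences was -0.98 in caput at 13 months, where the median of all sequences was -5.74. It was 0.62 in corpus (all -0.11), 0.94 in cauda (all 0.28), 0.59 in testis (all 0.07) and 0.09 at 2 months (all -0.04). With the median of all sequences set to 0, which shifts every sequence of the pair by the same amount, 125 of the 129 in caput were higher and 0 lower.

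5.8S-a was higher in WT caput than in KO caput at 13 months and higher in KO in the other 13-month tissues. It is listed under the precursor record, follows a 91 nt contig of the 5.8S reads with an overlap of 14 nt, and holds the letters of the 5.8S 3′ end as commonly annotated. It stood (WT, then KO) at 1813 and 569 RPM in caput at 13 months, 426 and 824 RPM in corpus, 186 and 1068 RPM in cauda, and 460 and 1962 RPM in testis. The ratios were 0.314 (0.307 to 0.321) in caput, 1.94 (1.88 to 1.99) in corpus, 5.73 (5.50 to 5.96) in cauda and 4.27 (4.12 to 4.42) in testis. At 2 months it was scarce, with 4 reads in WT and 22 in KO. The 5.8S-a counts leave out reads that end before its last base, and 99.3% to 100% of the reads counted ended at that base in each library. Its class moved as well, since 490 of the 569 RPM in KO caput and 967 of the 1068 RPM in KO cauda were listed as mRNA, against 33.5 of the 186 RPM in WT cauda.

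28S-a holds the letters next to the 28S 3′ end. Its 32 nt form had 226 RPM (WT) and 64.4 RPM (KO) in caput at 13 months, a ratio of 0.285 (0.266 to 0.305). Corpus had 64.8 and 91.2 RPM, cauda 23.4 and 38.1 RPM, and testis 46.1 and 288 RPM, a ratio of 6.24 (5.61 to 6.95). KO testis was the highest library for this form, and the 2-month libraries held 4 and 2 reads. The 33 nt form, which has 1 more T at the start, had 215 RPM (WT) and 19.0 RPM (KO) there, but reads with 1 mismatch to it numbered 139 beside 2972 exact reads in WT and 334 beside 349 in KO, so its low value in KO was not used. Over all forms WT caput was the highest library, with 474 RPM against 304 RPM in KO testis.

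18S-c, which lies near the 18S 3′ end, and 28S-b, an inner 28S fragment, were named for their ratios in testis, and 28S-b also for caput, so these ratios are a description only. 18S-c had 110 RPM (WT) and 29.5 RPM (KO) in caput at 13 months, a ratio of 0.269 (0.243 to 0.297), and 17.6 and 149 RPM in testis, a ratio of 8.43 (7.13 to 10.04). 28S-b had 68.1 and 8.22 RPM in the same caput pair, a ratio of 0.121 (0.101 to 0.144), and 28.7 and 226 RPM in testis, a ratio of 7.88 (6.91 to 9.03). In corpus and cauda 18S-c stood between 13.6 and 30.5 RPM and 28S-b between 4.93 and 22.5 RPM. WT caput and KO testis were the highest libraries for both.

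**Figure D4:**
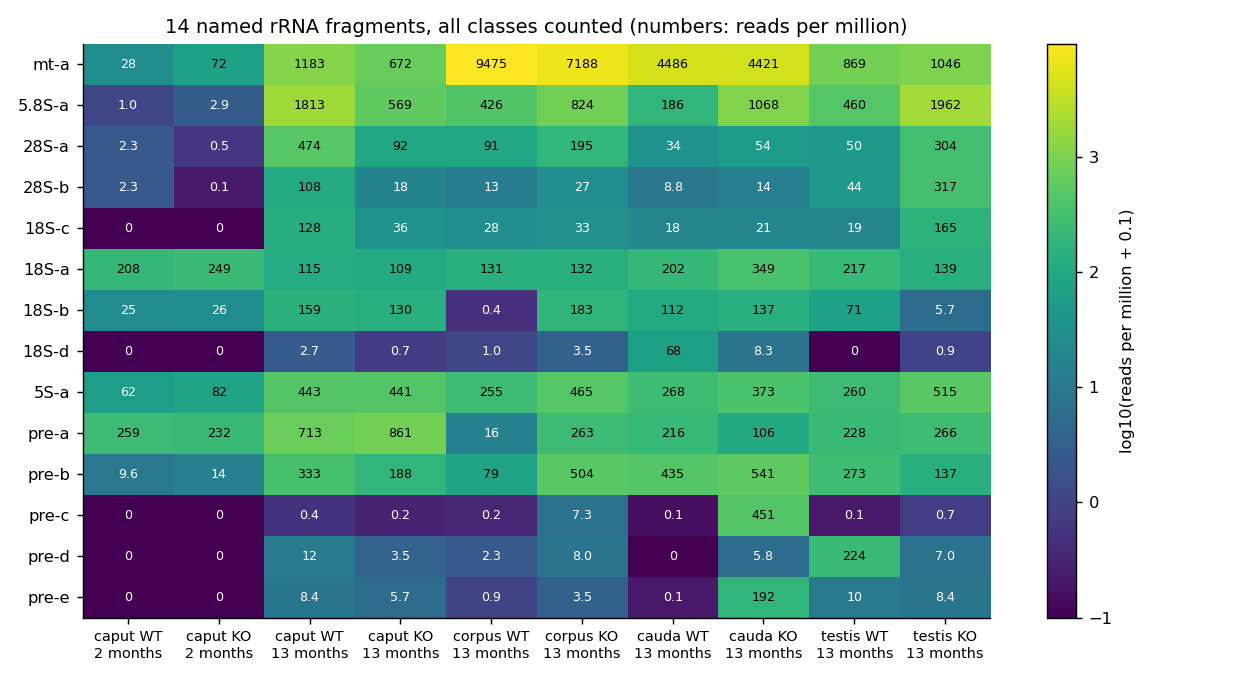
Level of 14 named fragments in the 10 libraries, counting every form that holds the named core within 3 nt at either end under any class (for 5S-a its 20 nt form is the core, so the values are below those of the whole set), as RPM (numbers) and as colour on a log10 scale. 5.8S-a is highest in KO testis (1962 RPM) and WT caput at 13 months (1813 RPM), and pre-c and pre-e stand above 100 RPM in KO cauda alone.

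Other fragments had other orders of the libraries. 18S-a, an inner 18S fragment, was among the steadiest, with 114.5 and 107 RPM in WT and KO caput at 13 months, 130 and 129 RPM in corpus, 198 and 340.5 RPM in cauda, and 215 and 138 RPM in testis. It was as high at 2 months, with 207 and 247 RPM, where the 29 nt length held 46.0% and 50.8% of 18S reads. 18S-b had one of the largest ratios in corpus, with 11 reads in WT (0.379 RPM) and 1532 in KO (183 RPM), a ratio of 484 (269.8 to 972). A large ratio was one rule for naming sequences, so this ratio is a description only. Reads with 1 mismatch to it numbered 0 in WT and 44 in KO corpus. In caput and cauda at 13 months 18S-b stood between 112 and 159 RPM, so WT corpus was the low library. In testis it had 70.5 RPM (WT) and 5.69 RPM (KO), but reads with 1 mismatch numbered 14 beside 604 exact reads in WT and 11 beside 56 in KO, so no ratio was drawn from this low value.

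Cauda gave the largest ratios among the named sequences, in fragments rich in G and C. A large ratio within a pair was one rule for naming sequences, so the ratios in this paragraph are a description only. pre-c, 90.9% G or C, had 5169 reads in KO cauda (451 RPM) and 1 read in WT, a ratio of 7417 (1331 to 293019), and at most 7.30 RPM in any other library. Reads with 1 mismatch to pre-c numbered 11 in KO and 0 in WT cauda. pre-e, 94.4% G or C, had 1964 reads in KO (172 RPM) and 1 in WT cauda, and 10.2 RPM or less elsewhere. Reads with 1 mismatch to pre-e numbered 21 in KO and 0 in WT cauda. The exact 18S-d sequence had 1064 reads in WT (64.8 RPM) and 26 in KO cauda (2.27 RPM), with 28 and 3 reads at 1 mismatch. No ratio was drawn from this low value. Over all forms with at most 3 nt more at either end, 18S-d had 68.2 RPM (WT) and 8.30 RPM (KO) in cauda. This was a ratio of 0.122 (0.098 to 0.150). Of the reads of these forms, 95.4% in WT cauda began at the first base of 18S-d, while 70.5% in KO cauda began 1 nt earlier. The 28S and precursor reads as a group were 69.5% G or C in KO cauda, against 62.4% in WT cauda and 53.0% to 64.1% in the other libraries. Reads of pre-c and pre-e are part of this group. In testis, pre-d had 217 RPM in WT and 6.10 RPM in KO, against 10.7 RPM or less elsewhere, but reads with 1 mismatch numbered 21 beside 1858 exact reads in WT and 10 beside 60 in KO, so no ratio was drawn from it.

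pre-a and pre-b were abundant fragments whose class changed from file to file. The exact 22 nt sequence of pre-b had 39.6 RPM in WT corpus, listed as rRNA, and 457 RPM in KO corpus, listed as piRNA. This was a ratio of 11.5 (10.8 to 12.3). Reads with 1 mismatch to it numbered 49 beside 1151 in WT and 48 beside 3816 in KO corpus, so more per exact read in WT. Over all forms with at most 3 nt more at either end, the corpus ratio was smaller, at 6.40 (6.08 to 6.73). Of the reads of these forms, 64.5% in WT and 93.8% in KO corpus ended at the last base of pre-b. The exact sequence had 296 and 168 RPM in caput at 13 months, 394 and 484 RPM in cauda, and 196 and 86.5 RPM in testis. The 22 nt form of pre-a, listed as rRNA in 5 libraries and as snRNA in the other 5, had 455 and 395 RPM in caput at 13 months, 9.64 and 164 RPM in corpus, 207 and 101 RPM in cauda, and 217 and 254 RPM in testis. WT corpus was again the lowest 13-month library for both. The 21 nt form of pre-a, which starts with T, had 240.4 and 450 RPM in caput at 13 months, 181 and 164 RPM in caput at 2 months and 91.9 RPM in KO corpus, but at most 1.22 RPM in the other 5 libraries. Its ratio in corpus was 889.9 (303 to 4325), from 3 reads in WT and 768 in KO, with 0 and 20 reads at 1 mismatch. This form was named partly for that ratio, which is therefore a description only. To the 22 nt form, reads with 1 mismatch numbered 1 beside 280 in WT and 3 beside 1374 in KO corpus.

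WT corpus also held few rRNA reads that begin with T. Outside AB183255.1 and AB183256.1, 8.38% of its rRNA reads began with T, against 16.9% in KO corpus, 11.2% to 19.7% in the other 13-month libraries and 31.5% to 39.8% at 2 months. The gap was smaller in miRNAs, at 72.04% in WT and 79.6% in KO corpus. The part of this in the corpus ratios was not tested.

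Fragments of 5S rRNA differed between the 2-month and 13-month libraries in how many shared one 3′ end. 5S-a is a set of nested forms of 18 to 25 nt that end at the same base and differ in their start. Of the 5S reads, 77.9% to 93.7% in each library matched, without a mismatch, a 5S sequence built from the reads. Of these exact reads, 23.9% to 35.2% ended at the 3′ end of 5S-a in the 8 libraries at 13 months. At 2 months 83.8% in WT and 82.4% in KO did. In RPM, reads with this end stood at 378 to 770 at 13 months and at 297 and 367 at 2 months, while total 5S stood at 1582 to 3017 and at 456 and 480 RPM.

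The level of 5S-a (WT, then KO) was 561 and 573 RPM in caput at 13 months, 415 and 652 RPM in corpus, 377 and 478 RPM in cauda, 362 and 752 RPM in testis, and 240.2 and 308 RPM in caput at 2 months. The 21 nt form was the most frequent in all 8 libraries at 13 months, with 22.7% to 36.1% of the set. At 2 months the 24 nt form, whose first base is T as well, was the most frequent, with 55.6% in WT and 49.6% in KO. At 13 months the 24 nt form held 7.08% in KO corpus and 0.249% to 0.511% in the other libraries. The 23 nt form, which starts with T, held 0.265% in WT corpus against 5.70% to 17.9% in the other 13-month libraries. The 20 nt form, which also starts with T, had 11.4 RPM in WT corpus and 76.2 RPM in KO corpus. Within this set, which shares one end by definition, the starts thus differed between the 2-month and 13-month libraries and in WT corpus. Age and sequencing run cannot be told apart in the first of these differences.

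rRNA reads had no single length. At 13 months the most frequent length was 20 nt in KO caput, KO corpus and both cauda libraries, with 15.0% to 43.7% of rRNA reads, and 19 nt in the other libraries, with 15.2% to 20.9%. Without the most abundant sequence, which is mt-a, the 20 nt peak gave way to another length in all 4 of these libraries. Without 5.8S-a the 19 nt peak did so in WT caput and KO testis, but WT corpus kept 19 nt without it. In testis the most frequent length of all classified reads was 30 nt, so its rRNA reads were shorter than the library as a whole. At 2 months the median rRNA read was 27 nt in WT and 29 nt in KO. Of the rRNA reads there, 19.4% and 19.6% were 39 nt or longer, lengths at which the 13-month libraries held no rRNA read. The longest read of any class was 38 or 39 nt in each 13-month library and 47 nt in both 2-month libraries. This limit thus held for all classes, and its part in the 2-month medians was not tested.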

How the data were processed

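The deposited files hold raw read counts per distinct sequence, with reads collapsed by the authors and matched to miRBase, Rfam and GenBank entries with up to 2 mismatches, per the file headers. TopHat2, Bowtie 0.12.7 and mm9 are named in the submitters' processing notes, without roles. Counts were divided by the classified reads of the library (RPM), and minus-strand sequences were turned back to the read. In the 2-month files some ranks and counts had become dates and were read back. Gene names came from RefSeq (GRCm38.p6), and no coordinates were used.

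With 1 pooled library per group no test was possible. Shares have exact Clopper-Pearson intervals and ratios exact conditional binomial intervals, and without molecular identifiers both cover counting error only. A count of 0 has a floor of 3 counts. Sequences in a pair were called at 10 RPM, 2-fold and an interval excluding 1. In a simulation of the cauda pair (2034 sequences) 100 of 100 changes of log2 1.5 were recovered and 0 of 1834 unchanged sequences were called. The simulated counts held counting error only, so they say nothing about calls that come from differences between libraries. Named sequences were the 3 most abundant per library and the 2 with the largest ratios in each direction of each pair, with a minimum of 50 RPM. Some named items are not reported here. The members and lists were chosen with earlier results of these data known. Alternatives changed the base, class, strand, mismatches, lengths, abundant sequences and low counts. Python 3.11.15, pandas 2.3.3, NumPy 2.4.6, SciPy 1.17.1 and matplotlib 3.10.9 were used.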

Additional observations from a re-analysis of the deposited data

Results flagged for a closer look

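The listed rRNA share had opposite directions in tissues of 13-month mice, with a log2 KO over WT ratio of -0.84 in caput against 1.33 in corpus, 0.62 in cauda and 0.45 in testis. Counting any sequence that a file lists as rRNA gave log2 0.18 in corpus, and the caput direction reversed for distinct sequences at equal depth. The difference between tissues was not tested, since each rests on 1 pooled library per genotype.

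Reads of rRNA entries on the minus strand, which enter no comparison, numbered from 8 in KO caput at 2 months to 1241 in KO testis. Reads whose letters another file lists as rRNA made up 0.0164% of classified reads in WT caput at 2 months and up to 1.02% in WT corpus.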

How the results depend on the processing

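No paired analysis was possible because each group is 1 pooled library and no replicate number comes from the labels. Of the alternatives for the rRNA share, 52 of 61 kept their direction and their side of 2-fold. The caput log2 ratio at 13 months was -1.09 on a base of reads neither piRNA nor rRNA, -1.33 on miRNA reads and 1.36 for distinct sequences at equal depth, a reversal. The corpus ratio was 0.16 for distinct sequences, 0.66 without the 10 most abundant sequences, 0.18 counting any sequence a file lists as rRNA, 0.65 for sequences never under another class and 0.65 without AB183255.1 and AB183256.1. The cauda ratio was 1.06 for sequences never under another class. Settings without those records, without mRNA records, without dated rows, with 5.8S-a, with any listed sequence for 28S reads, and with only reads listed as rRNA were chosen after seeing the data.

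For a molecule's share of rRNA reads (log2 KO over WT), leaving out the 10 most abundant sequences gave -0.069 for 28S and -0.42 for other records in caput at 13 months, 0.31 for 5S, -0.15 for 5.8S, -0.051 for 28S and -0.13 for other records in corpus, 0.063 for other records in cauda, and -0.052 for 28S at 2 months. Counting any sequence a file lists as rRNA gave -0.23 for other records in caput, and in corpus 0.64 for 5S, 0.32 for 5.8S, 0.33 for 18S, 0.60 for 28S and -0.52 for other records. Without mismatches the other records in caput had 1.18. Without mismatches 5.8S had -1.62 in corpus, from 8 and 2 reads (WT, KO), and 1.35 in testis, from 1 and 4 reads, so neither value can be read. Per classified read, counting any sequence a file lists as rRNA gave -0.96 for 28S and precursor in caput at 13 months and -0.21 at 2 months, and adding 5.8S-a gave 1.92 for 5.8S in cauda and 1.505 in testis.

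With 50 reads in place of 10 RPM, counts of sequences higher and lower in KO were 14 and 168 in caput at 13 months, 76 and 37 in corpus, 193 and 21 in cauda and 108 and 19 in testis, with 2 higher at 2 months. With the median of all set to 0 they were 125 and 0 in caput. As a share of rRNA reads they were 6 and 36 in caput, 20 and 33 in corpus, and 31 and 20 in testis, with 16 lower in cauda. With only reads listed as rRNA, 15 were higher in caput, and 17, 19 and 23 were lower in corpus, cauda and testis. Counting any sequence a file lists as rRNA gave 3 higher at 2 months.

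Against WT caput, the base without piRNA and rRNA gave log2 -1.10 for corpus and 1.01 for testis, a reversal, the count of any sequence listed as rRNA gave 0.073 for corpus, and leaving out AB183255.1 and AB183256.1 gave -0.67 for cauda. Against KO caput, testis had 2.51 on that base, 0.93 without the 10 most abundant sequences and 0.86 by the count of any sequence listed as rRNA, and corpus had 0.68 without the 10 most abundant sequences and 0.69 without the 2 records. Without the top sequence the most frequent length was 22 nt in both caput libraries at 13 months, 19 nt in KO corpus and both cauda libraries, 21 nt in KO testis and 24 nt in KO caput at 2 months. Over distinct sequences it was 18 nt in WT corpus, 19 nt in KO caput, KO corpus and both cauda libraries, 27 nt and 29 nt in WT and KO testis, and 22 nt and 24 nt in WT and KO caput at 2 months. The alternative for rRNA transcripts in the caput transcriptome was not run. The cause of these changes was not tested.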

Other observations

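Other ribosomal protein records were also listed as rRNA. Rpl41, of the large subunit, had 77 and 59 reads in caput at 13 months (WT, then KO) and 19 and 24 in testis. Rps3, of the small subunit, had 38 and 20 reads in caput and 19 and 23 in testis. In records with a gene symbol, each gene other than Rps27a and Rps15 had at most 277 reads over all 10 libraries. Reads of cDNA clone records are not in these gene counts. These genes were picked from the most abundant symbols after their values were seen.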
